A study of Mus musculus with 14 samples.

Results

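The 9 genes described here encode factors that carry RNA out of the nucleus: Nxt1, Nxt2, Nxf1, Phax, Ncbp1, Ncbp2, Ncbp3, Alyref and Xpo1. They were taken by name from a count table of 55416 mouse genes, and all 9 were among the 18430 genes tested. The members were selected on a shared role with treatment results of these libraries already in view, the log2 fold change of Nxt1 in XEN cells among them. Which measured values led to each other member is not recorded. The members' differences between treated and solvent libraries are therefore given as a description, with fold changes and calls but no p-values.

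The study sequenced total RNA of stem cell lines from hybrid mice (Mus molossinus and Mus musculus), in 14 libraries. XEN cells are stem cells of the extraembryonic endoderm, TSC of the trophectoderm and EpiSC of the epiblast; XEN and TSC are labelled WT, and EpiSC carry the genotype XmolXmus-<delta>Tsix in both arms. XEN grew in DMEM with FBS, EpiSC in serum replacement with Fgf2 and Activin A, and TSC in medium conditioned by embryonic fibroblasts with Fgf4. One arm received STM2457, an inhibitor of the RNA methyltransferase METTL3, at 50 µM for 12 h, and the other is named DMSO, the solvent, in the titles. XEN gave 3 libraries per arm, and TSC and EpiSC gave 2 per arm each. The ages and sources of the lines are not given in the sources used here, and 1 line stands for each cell type.

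Messenger RNA leaves the nucleus mostly through a receptor made of NXF1 and a small partner, NXT1 or its paralogue NXT2. ALYREF, an adaptor of the TREX complex, hands the mRNA to that receptor. NCBP1 and NCBP2 form the nuclear complex that binds the RNA cap, and NCBP3 is an alternative partner of NCBP1. PHAX links the capped precursors of spliceosomal snRNAs to XPO1, the exportin that also carries many proteins with a nuclear export signal. METTL3 places N6-methyladenosine (m6A) on RNA, most often within a short motif whose core is GGAC, and the m6A mark is known to shorten the life of many mRNAs. STM2457 blocks the enzyme, so the RNA of Mettl3 itself does not check the treatment labels; its log2 fold change was −0.13 ± 0.115 (SE) in XEN, −0.15 ± 0.135 in TSC and −0.24 ± 0.136 in EpiSC.

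XEN libraries held 6826496 to 10024628 counts each, TSC libraries 17909934 to 20354242 and EpiSC libraries 18640099 to 21097380. Of 4 marker genes fixed for each cell type, the summed level in DMSO was 1163 to 1485 CPM for the endoderm set in XEN, 1113 to 1134 CPM for the trophoblast set in TSC and 919 to 967 CPM for the epiblast set in EpiSC. The 4 fibroblast markers summed to 46.8 to 53.6 CPM in EpiSC, 3.15 to 3.42 CPM in TSC and 0.122 to 0.648 CPM in XEN. Trophoblast markers summed to 148 to 159 CPM in EpiSC. Endoderm markers summed to 24.3 to 26.3 CPM in TSC. Mitochondrial rRNA took 12.0% to 16.0% of counts in XEN and 0.0366% to 0.0505% in the other lines. Histone genes took 0.436% to 0.654% of counts in XEN and 0.00298% to 0.00629% in the other lines. Nothing in the labels says that replicates came from separate cultures, so the p-values reflect the spread among these libraries alone, and that spread may be technical. In bulk RNA, fewer cells of a type and less RNA per cell cannot be told apart.

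Because METTL3 acts on RNA sequence, the transcripts of the receptor partners Nxt1 and Nxt2 are shown at their GGACT motifs, in the longest coding transcript of GENCODE M21. GGACT is a common form of the m6A motif, only the transcript's own strand was searched, and each match also holds a GGAC. Capitals mark the motif.
Nxt1 site 1: acaaacagcgGGACTtcaaccagaa
Nxt1 site 2: tccggttccaGGACTgggccagcta
Nxt1 site 3: actggatgttGGACTcccagaatcc
Nxt2 site 1: gctcatatgtGGACTaaactatttt
Sites 1 and 2 of Nxt1 start at bases 750 and 837 of 1116, inside the coding sequence (bases 430 to 849), and site 3 starts at base 976, in the 3′ untranslated region. The single site of Nxt2 starts at base 2468 of 2538, in the 3′ untranslated region. A match shows only that the letters are present; m6A was not measured here.

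By density of the motif, Nxt1 stood near the top of the transcriptome and Nxt2 near the bottom. By number Nxt1 did not stand out, with 3 GGACT (percentile 44.7, median 3) and 8 GGAC (percentile 25, median 13). Its high density goes with a short transcript of 1116 bases. Nxt1 held 2.69 GGACT per kb (percentile 96.4 of 14312 tested protein-coding genes) and Nxt2 held 0.394 (percentile 12.8), against a median of 1.05. At least 1 GGACT was present in 92.5% of all these transcripts. Over all GGAC motifs the densities were 7.17 per kb in Nxt1 (percentile 92.2), 6.76 in Ncbp2 (89.3), 6.18 in Phax (83.6) and 4.32 in Ncbp1 (52.7). They were 3.97 per kb in Alyref (percentile 45.0), 3.06 in Ncbp3 (24.8), 2.33 in Xpo1 (11.9), 1.98 in Nxf1 (7.32) and 1.18 in Nxt2 (1.87). Each value is from 1 transcript per gene, the longest coding transcript. The transcript used for Nxf1 has a coding sequence of 1254 of its 4042 bases, and other transcripts may differ in density. For GGACT the order at the top was Nxt1, Ncbp2 (2.42 per kb, percentile 94.4), Ncbp1 (1.99, percentile 88.2) and Phax (1.54, percentile 75.5). Of these 4, Nxt1 and Phax were called higher with STM2457, as described next, and Ncbp2 and Ncbp1, both denser than Phax by GGACT, were not; the members were chosen with responses known, and nothing is read from this. Nxt1 and Phax also have short transcripts, of 1116 and 1942 bases, at percentiles 6.94 and 23.5. That of Ncbp2, which was not called, was close to Phax in length, at 2070 bases (percentile 26.6). Nothing is read from these lengths either, and a link of length or motif density with the response was not tested.

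With STM2457, the level of Nxt1 was 2.88-fold higher in XEN, 1.90-fold higher in TSC and 2.19-fold higher in EpiSC. Nxt1 (ENSMUSG00000036992, chromosome 2), the small subunit of the mRNA export receptor, stood at 20.8, 19.1 and 17.9 CPM (read counts relative to the library's TMM-scaled total) in the 3 XEN DMSO libraries and at 52.3, 60.1 and 53.8 CPM with STM2457. In TSC its solvent libraries had 47.7 and 51.2 CPM, its inhibitor libraries 95.7 and 91.9 CPM. In EpiSC the solvent libraries had 42.1 and 44.5 CPM, the inhibitor libraries 96.9 and 92.4 CPM. Every treated library lay above every DMSO library of its line. The log2 fold changes were 1.52 ± 0.103 (SE) in XEN, 0.92 ± 0.11 in TSC and 1.13 ± 0.111 in EpiSC. The effect in XEN minus that in TSC was 0.60 ± 0.15 on the log2 scale, and no difference between lines was called for any of the 9 genes.

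Phax, the adaptor of snRNA export, was 2.13-fold higher with STM2457 in XEN, 1.97-fold higher in TSC and 2.31-fold higher in EpiSC. Its level in XEN was 43.5, 35.1 and 35.0 CPM in DMSO against 84.0, 69.5 and 88.1 CPM with the inhibitor. In TSC it was 76.2 and 80.2 CPM against 157 and 151 CPM, and in EpiSC 69.7 and 67.3 CPM against 155 and 162 CPM. The arms did not overlap in any line. Its log2 fold changes were 1.09 ± 0.111 in XEN, 0.98 ± 0.126 in TSC and 1.21 ± 0.127 in EpiSC. Phax (ENSMUSG00000008301, chromosome 18) shares 300 of its 2223 annotated exon bases with Aldh7a1 on the opposite strand, and whether the counting used strand is not given. Aldh7a1 had log2 fold changes of −0.31 ± 0.0995 in XEN, −0.23 ± 0.11 in TSC and −0.32 ± 0.11 in EpiSC, opposite in sign to those of Phax.

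**Figure D1:**
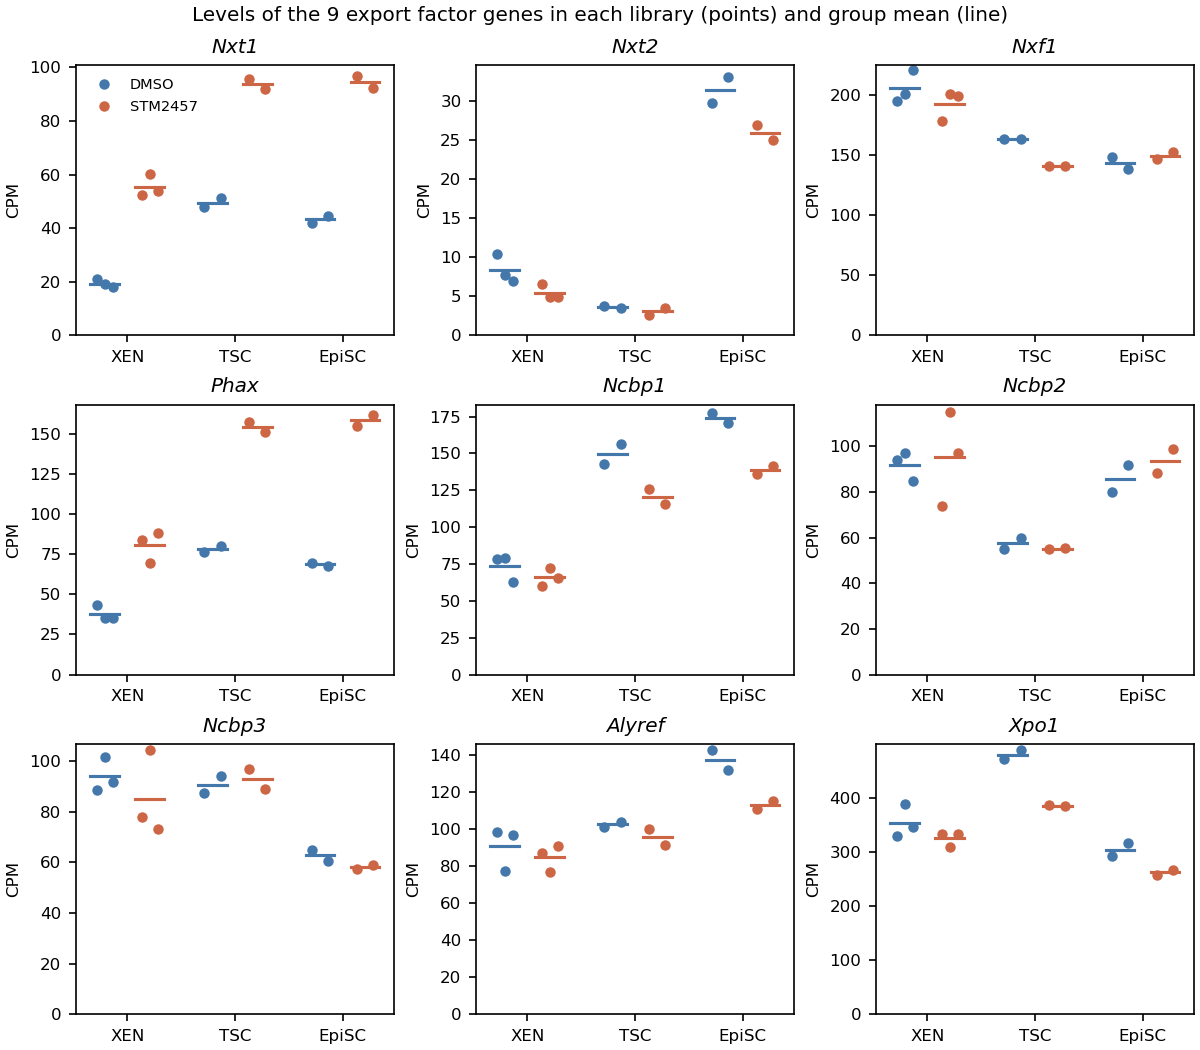
CPM of each gene (vertical axis, from 0) in every library, by line; points are libraries, blue for DMSO and orange for STM2457, and lines are group means. Nxt1 and Phax are the panels in which the treated points stand well above the DMSO points in all 3 lines, at 52.3 to 96.9 CPM and 69.5 to 162 CPM.

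Counted over the list, 2 of 9 genes were called higher and 0 lower in each of the 3 lines, Nxt1 and Phax in every case. Fits of 1 line alone called further genes lower: Nxf1, Ncbp1 and Xpo1 in TSC (2 higher and 3 lower), Nxt2, Ncbp1, Alyref and Xpo1 in EpiSC (2 higher and 4 lower), and none in XEN. Over all genes those fits called 4378 in TSC, 4321 in EpiSC and 25 in XEN. The fit of all libraries called 178, 309 and 764. The call rule was edgeR's quasi-likelihood test with an adjusted p (Benjamini-Hochberg, over all tested genes) under 0.05. In the fit of all libraries 3.07% of all tested genes were called higher in XEN, 0.836% in TSC and 1.28% in EpiSC. In either direction the shares were 4.15%, 0.966% and 1.68%. Since the list was proposed with these results known, nothing is read from the count. The median log2 fold change over the 9 genes was −0.10 in XEN, −0.10 in TSC and −0.11 in EpiSC, against 0 for all tested genes in each line. Scaling to ribosomal protein genes moved the median of all genes by −0.04, 0.11 and 0.12, and the share of higher genes among all called genes from 74.1%, 86.5% and 76.1% to 88.7%, 99.0% and 97.2%.

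Arms whose libraries did not overlap were common with so few libraries. In XEN 2 of the 9 genes were higher and 1 lower without overlap (Nxt1 and Phax, and Nxt2), against 8.36% and 7.03% of all tested genes. In TSC 2 were higher and 4 lower, against 27.9% and 27.8%, the 4 being Nxf1, Ncbp1, Alyref and Xpo1. In EpiSC 2 were higher and 5 lower, against 29.6% and 26.5%, the 5 being Nxt2, Ncbp1, Ncbp3, Alyref and Xpo1. Over both directions the share of all genes was 15.4%, 55.7% and 56.1%.

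Both calls in TSC rest on 2 libraries per arm. Without TSC DMSO library 1 neither gene was called there, with log2 fold changes of 0.88 for Nxt1 and 0.95 for Phax, and without TSC DMSO library 2 Phax was not called, at 1.01. In XEN and EpiSC both genes stayed called under every alternative run, including the removal of each library in turn.

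Nxt2 (ENSMUSG00000042271), the X-linked paralogue of Nxt1, did not follow it. In XEN the solvent libraries had 10.3, 7.77 and 6.95 CPM and the STM2457 libraries 6.55, 4.85 and 4.95 CPM, without overlap. Its counts were 38 to 66 per XEN library, and its log2 fold change of −0.60 ± 0.204 was not called. With the XEN replicate numbers treated as pairs, in a block over all lines, Nxt2 was called lower at −0.61, while with XEN fitted alone and blocked it was not. In TSC, at 51 to 80 counts, Nxt2 had 3.68 and 3.47 CPM with solvent against 2.60 and 3.54 CPM with the inhibitor, which overlapped. In EpiSC it had 29.8 and 33.1 CPM against 26.9 and 25.0 CPM, without overlap. The log2 fold changes in TSC and EpiSC were −0.21 ± 0.231 and −0.28 ± 0.18, neither of them called in the fit of all libraries. With EpiSC fitted alone Nxt2 was called lower in that line.

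Nxf1, the large subunit of the receptor, was not called in any line in the fit of all libraries. With TSC fitted alone it was called lower there, at −0.21. In XEN its arms overlapped, at 195, 201 and 221 CPM (DMSO) against 178, 201 and 199 CPM. In TSC both DMSO libraries stood at 163 CPM and both treated libraries at 141 CPM (log2 fold change −0.21 ± 0.105). In EpiSC the levels overlapped, at 148 and 138 CPM against 146 and 153 CPM (0.06 ± 0.105).

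**Figure D2:**
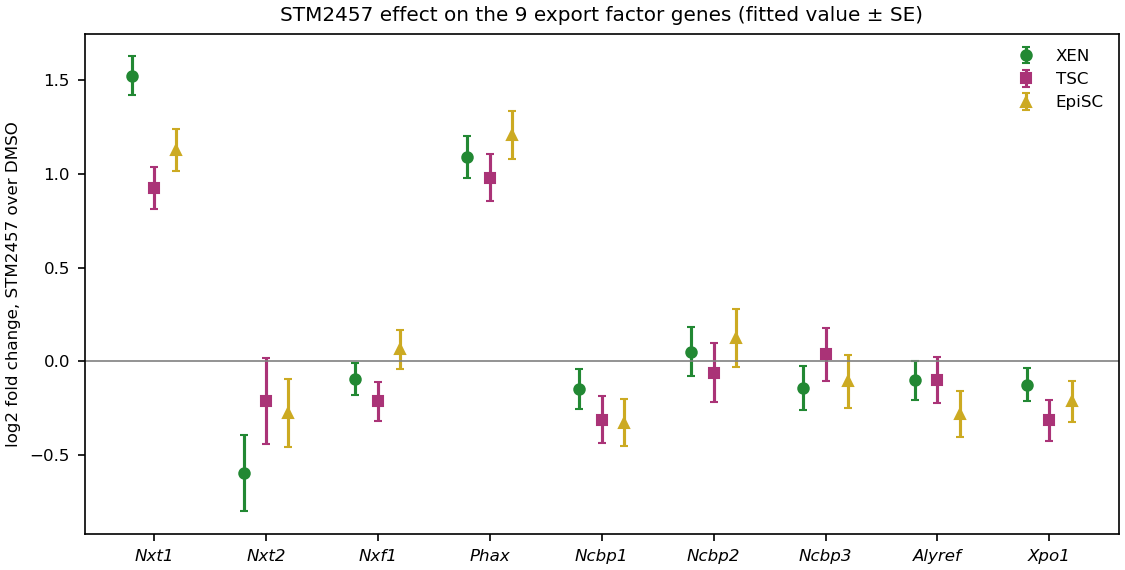
Log2 fold change of STM2457 over DMSO (vertical axis) for each of the 9 genes in XEN (circles), TSC (squares) and EpiSC (triangles); bars are ± SE of the edgeR fit. Nxt1 and Phax lie between 0.92 and 1.52, and the other 7 genes lie between −0.60 and 0.13.

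Ratios within a library do not depend on how libraries are scaled, and they show the unequal change of partners. Per kb of exon, Nxt1 over Nxf1 was 0.423, 0.378 and 0.323 in the XEN DMSO libraries and 1.16, 1.19 and 1.07 with STM2457. In TSC the ratio was 1.16 and 1.24 in DMSO and 2.70 and 2.59 with STM2457. In EpiSC it was 1.13 and 1.28 in DMSO and 2.62 and 2.40 with STM2457. The treated XEN libraries at 1.16 and 1.19 thus lay within the range of the TSC and EpiSC DMSO libraries. The treated XEN library at 1.07 lay below that range. Nxt1 outweighed Nxt2 in every library, from a ratio of 3.83 in an EpiSC DMSO library to 105 in a TSC library with STM2457. Nxt2 over Nxf1 was 0.0258 to 0.0738 in TSC and XEN and 0.229 to 0.334 in EpiSC.

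**Figure D3:**
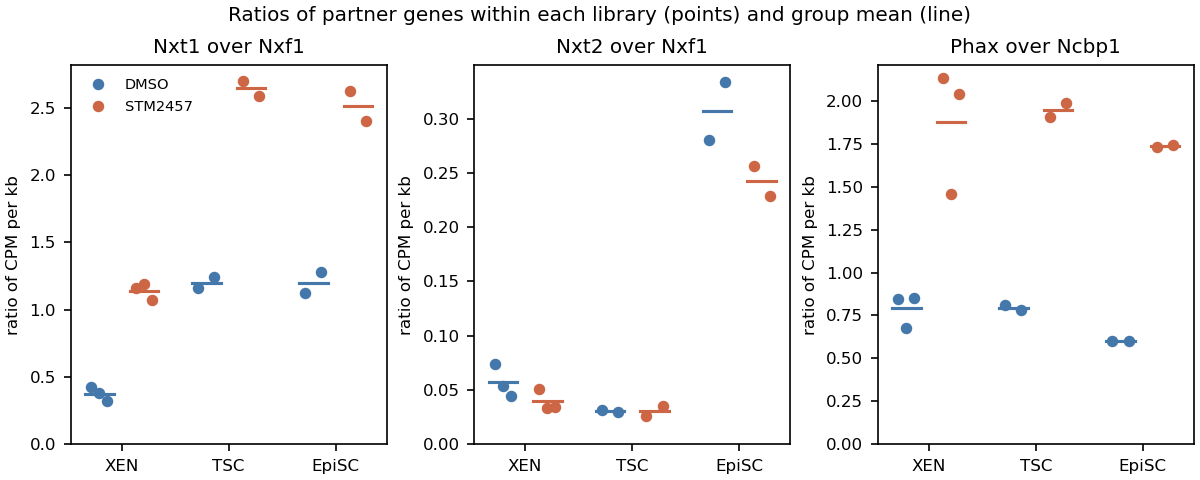
Ratio of levels per kb of exon (vertical axis, from 0) for Nxt1 over Nxf1, Nxt2 over Nxf1 and Phax over Ncbp1 in each library (points; blue DMSO, orange STM2457) with group means (lines). For the Nxt1 and Phax ratios every treated point lies above every DMSO point of its line; the Nxt2 ratio is highest in EpiSC, at 0.229 to 0.334.

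Of the cap-binding genes, none was called in any line in the fit of all libraries. Ncbp1, the large subunit of the cap complex, had log2 fold changes of −0.15 ± 0.107 in XEN, −0.31 ± 0.124 in TSC and −0.33 ± 0.124 in EpiSC. Its TSC libraries stood at 143 and 157 CPM (DMSO) against 126 and 116 CPM, and its EpiSC libraries at 177 and 171 CPM against 136 and 141 CPM, without overlap in either line. With TSC or EpiSC fitted alone, Ncbp1 was called lower in each, at −0.30 and −0.34. In XEN the arms overlapped, at 78.5, 79.0 and 62.6 CPM against 60.0, 72.5 and 65.9 CPM. Ncbp2, which holds the cap itself, had log2 fold changes of 0.05 ± 0.131, −0.06 ± 0.157 and 0.13 ± 0.155 in XEN, TSC and EpiSC, with overlapping arms throughout. Its treated XEN libraries were spread from 73.8 to 115 CPM around DMSO libraries of 84.7 to 97.2 CPM, and the sign in XEN and TSC turned when scaled to ribosomal protein genes. Ncbp3, the alternative partner, had −0.14 ± 0.119, 0.04 ± 0.14 and −0.11 ± 0.142. In EpiSC Ncbp3 stood at 64.9 and 60.6 CPM against 57.4 and 58.9 CPM, and its sign there also turned under that scaling.

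Relative to its partners in snRNA export, Phax was higher in every treated library than in any DMSO library of the same line. Phax over Ncbp1, per kb of exon, was 0.845, 0.677 and 0.852 in XEN DMSO libraries and 2.13, 1.46 and 2.04 with STM2457. In TSC it was 0.811 and 0.780 against 1.91 and 1.99, and in EpiSC 0.600 and 0.601 against 1.73 and 1.74. Phax over Xpo1 was 0.292 to 0.427 in XEN DMSO libraries and 0.727 to 0.854 with STM2457, with 0.521 to 0.531 against 1.27 to 1.31 in TSC and 0.688 to 0.768 against 1.94 to 1.95 in EpiSC.

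Xpo1 and Alyref had negative log2 fold changes in all 3 lines, none of them called in the fit of all libraries. Xpo1, the exportin, stood at 472 and 488 CPM in TSC DMSO libraries and at 387 and 385 CPM with the inhibitor (log2 fold change −0.32 ± 0.109). In EpiSC it stood at 293 and 316 CPM against 258 and 267 CPM (−0.21 ± 0.109), and in XEN at 330, 389 and 346 CPM against 334, 309 and 333 CPM (−0.12 ± 0.0897). Xpo1 was called lower in TSC by DESeq2 (−0.30) and with TSC fitted alone (−0.31), and in EpiSC with EpiSC fitted alone (−0.22). Alyref, the mRNA adaptor, stood at 143 and 132 CPM in EpiSC DMSO libraries and at 111 and 115 CPM with STM2457 (−0.28 ± 0.123), while in XEN (−0.10 ± 0.105) and TSC (−0.10 ± 0.123) the shifts were smaller than their errors. With EpiSC fitted alone Alyref was called lower there, at −0.29. Scaled to ribosomal protein genes, the Alyref value in TSC turned to 0.04.

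In DMSO the 3 lines differed in most of these genes. Whether line differences were also in view when the list was proposed is not recorded, and the p-values here hold only if they were not. Nxt2 showed the widest range, with 31.4 ± 2.34 CPM (SD, n = 2) in EpiSC, 8.35 ± 1.77 (n = 3) in XEN and 3.57 ± 0.154 (n = 2) in TSC. It was 8.77-fold higher in EpiSC than in TSC (log2 3.13 ± 0.209; adjusted p = 1.59e-09) and 3.78-fold higher than in XEN (adjusted p = 8.56e-08), and lower in TSC than in XEN by a log2 value of −1.21 ± 0.216 (adjusted p = 8.76e-05). These 3 differences of Nxt2 held under every alternative. No libraries of 2 lines overlapped for it.

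With TMM scaling Nxt1, Phax and Ncbp1 were lowest in XEN; with ribosomal protein scaling Phax and Ncbp1 turned to slightly lower in TSC. Nxt1 was 2.57-fold higher in TSC than in XEN (adjusted p = 8.76e-09) and 2.25-fold higher in EpiSC (adjusted p = 6.18e-08), and every TSC and EpiSC library lay above every XEN library. Phax was 2.07-fold (adjusted p = 6.48e-07) and 1.81-fold higher (adjusted p = 6.86e-06), and Ncbp1 2.05-fold (adjusted p = 4.78e-07) and 2.38-fold higher (adjusted p = 4.78e-08). Between EpiSC and TSC none of these 3 was called; the log2 differences were −0.19 ± 0.111 for Nxt1, −0.19 ± 0.126 for Phax and 0.22 ± 0.124 for Ncbp1. With XEN left out of the fit all 3 were called, at −0.20, −0.19 and 0.21, and with ribosomal protein scaling Ncbp1 was called at 0.52 while Nxt1 and Phax turned to 0.11. These sizes depend on scaling. Scaled to ribosomal protein genes, which moved the median of all genes by −1.03 for TSC against XEN and by −0.76 for EpiSC against XEN, Nxt1 in TSC against XEN fell to 0.28 (adjusted p = 0.099), Phax to −0.03 and Ncbp1 to −0.06. Against EpiSC the same scaling left Nxt1 at 0.39 and Ncbp1 at 0.45, both still called, and Phax at 0.08, not called.

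Nxf1 went the other way and was highest in XEN, at 206 ± 13.3 CPM (n = 3), against 163 ± 0.017 in TSC and 143 ± 7.12 in EpiSC (n = 2 each). The log2 differences were −0.33 ± 0.0969 for TSC (adjusted p = 0.00554) and −0.52 ± 0.0975 for EpiSC (adjusted p = 0.000145), with no overlap of libraries. Without TSC DMSO library 1 or 2 the first was not called (adjusted p = 0.0524 and 0.0584), nor was it with no filter on low counts (−0.28; adjusted p = 0.0696). Ncbp2 was lower in TSC than in XEN by a log2 value of −0.68 ± 0.147 (adjusted p = 0.000582) and higher in EpiSC than in TSC by 0.58 ± 0.156 (adjusted p = 0.00473). The latter was not called without EpiSC DMSO library 2 (0.47; adjusted p = 0.0628).

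Ncbp3 was lowest in EpiSC, by −0.58 ± 0.133 against XEN (adjusted p = 0.000865) and by −0.53 ± 0.141 against TSC (adjusted p = 0.00416). Scaled to ribosomal protein genes, the difference of Ncbp3 from TSC was −0.23 and not called (adjusted p = 0.386). Alyref was highest there, by 0.59 ± 0.113 against XEN (adjusted p = 0.000181) and by 0.42 ± 0.123 against TSC (adjusted p = 0.00798). The second was not called without TSC DMSO library 1 (0.40; adjusted p = 0.0574) or EpiSC DMSO library 1 (0.37; adjusted p = 0.0712). Scaled to ribosomal protein genes, Alyref stood at −0.18 in EpiSC against XEN. Xpo1 was highest in TSC, at 480 ± 11.1 CPM against 355 ± 30.5 in XEN and 305 ± 16.2 in EpiSC. Its log2 difference was 0.44 ± 0.0988 in TSC against XEN (adjusted p = 0.000806) and −0.66 ± 0.109 in EpiSC against TSC (adjusted p = 7.23e-05). Scaled to ribosomal protein genes, the first turned to −0.67 (adjusted p = 0.00177) and the second shrank to −0.36 and was not called (adjusted p = 0.108). In EpiSC against XEN, Xpo1 stood at −0.22 ± 0.1 (adjusted p = 0.0599). It was called lower under 6 of 20 alternatives: DESeq2 (−0.28), RLE factors (−0.28), ribosomal protein scaling (−1.02), the replicate block (−0.22), and without XEN DMSO library 1 (−0.27; adjusted p = 0.0233) or XEN STM2457 library 2 (−0.22; adjusted p = 0.0491).

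In count, 4 of 9 genes were called higher and 3 lower in TSC than in XEN, against 36.5% and 36% of all tested genes (72.5% in all). In EpiSC against XEN 5 were higher and 2 lower, against 36.6% and 35.1% (71.7% in all). In EpiSC against TSC 3 were higher and 2 lower, against 27.4% and 27% (54.4% in all). Without overlap, 5 genes were higher and 3 lower in TSC than in XEN, against 40.5% and 38.2% of all genes (78.7% in all). The same counts in EpiSC against XEN were 5 and 3, against 40.9% and 37.4% (78.3% in all), and in EpiSC against TSC 4 and 5, against 40.2% and 38.8% (79% in all). Scaled to ribosomal protein genes the calls were 0 higher and 6 lower, 3 and 4, and 4 and 0, and the share of higher genes among all called genes moved from 50.3%, 51.1% and 50.4% to 19.5%, 26.2% and 66.9%. The shares of members called, 7, 7 and 5 of 9, are near those of all genes. Line, culture medium, the EpiSC genotype, the fibroblast marker sums and the mitochondrial rRNA and histone shares of XEN move together with these differences, and their part in them was not tested.

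Compared per kb of exon within a line, Xpo1, at 49.4 ± 4.25 CPM per kb, and Nxf1, at 46.4 ± 3.01, led in XEN DMSO libraries, and these neighbours did not differ beyond their spread. Ncbp2 (39.9 ± 2.83), Alyref (23.7 ± 3.07), Ncbp1 (21.7 ± 2.76), Nxt1 (17.3 ± 1.31) and Phax (17.0 ± 2.2) followed, with Alyref and Ncbp1, and Nxt1 and Phax, within their spread. Ncbp3 (5.45 ± 0.396) and Nxt2 (2.63 ± 0.556) were last. In TSC the order began with Xpo1 (66.9 ± 1.55), Nxt1 (44.3 ± 2.22) and Ncbp1 (44.3 ± 2.85), and in EpiSC with Ncbp1 (51.4 ± 1.35), Xpo1 (42.4 ± 2.26) and Nxt1 (38.8 ± 1.52). Nxt2 was last in TSC (1.13 ± 0.0484), whereas in EpiSC it stood at 9.89 ± 0.737, above Ncbp3 at 3.64 ± 0.175. Exon lengths are those of all annotated exons, so an unused long exon, as in Ncbp3 with 17240 bases, lowers the value.

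**Figure D4:**
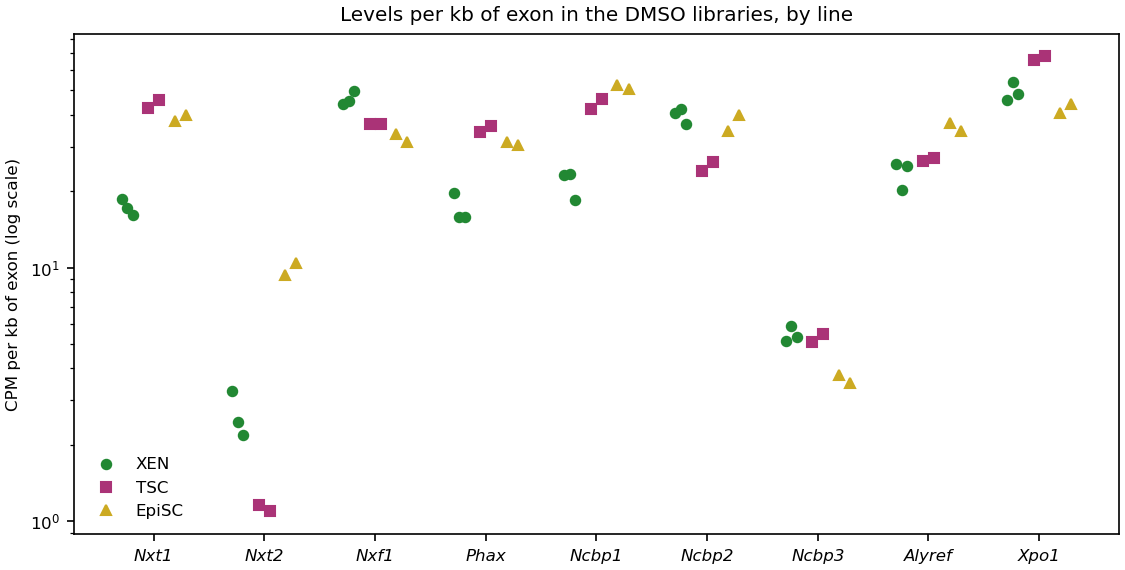
CPM per kb of exon (vertical axis, log scale) of the 9 genes in each DMSO library of XEN (circles), TSC (squares) and EpiSC (triangles). Nxt2 spans the widest range, from a mean of 1.13 in TSC to 9.89 in EpiSC; Nxt1, Phax and Ncbp1 are lowest in XEN with the TMM scaling plotted, which for Phax and Ncbp1 against TSC turns under ribosomal protein scaling.

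Genes whose course over the 14 libraries was most like that of Nxt1 were looked for among 10469 protein-coding genes that averaged 5 CPM or more, after subtracting each line's DMSO mean of log2 CPM. The closest were Phospho2 (Pearson r = 0.984), Mrpl43 (0.979), Ccdc71 (0.978), Rpp25l (0.978) and Plekho1 (0.975). Mrpl43, a protein of the mitochondrial ribosome, had log2 fold changes of 1.09, 0.81 and 1.07 in XEN, TSC and EpiSC, close to those of Phax, whose r with Nxt1 was 0.942. The other members had r between −0.77 (Nxt2) and 0.19 (Ncbp2). These correlations are descriptions over 14 libraries that share the treatment arms, and carry no test.

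The other genes of nuclear export, 58 in 8 lists chosen for their known roles, were looked at in the fit of all libraries. The lists were drawn up with earlier results of these data known. The p-values given for their genes hold only if those results did not shape the lists. In XEN, where 56 were tested, 3 rose and 2 fell (5 of 56, against 4.15% of all tested genes). In TSC and in EpiSC 1 rose and 1 fell (2 of 56 in each, against 0.966% and 1.68%). In each line the listed genes were called at a higher rate than all tested genes. These rates rest on few genes, and the lists were not tested as sets. The median log2 fold change was −0.03, −0.10 and −0.10 in XEN, TSC and EpiSC, against 0 for all tested genes. By edgeR's test 13, 12 and 15 of the 56 genes had an unadjusted p under 0.05. Over all 18430 tested genes at least 3132, 2434 and 2663 were also under 0.05 in the same test.

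Of 13 tested genes of the pore and of release at its cytoplasmic face, Nup62 rose 1.69-fold in XEN, from 61.4 ± 4.99 to 104 ± 11.2 CPM (n = 3; adjusted p = 0.000601), and Nup50 rose by 0.36 ± 0.091 on the log2 scale (adjusted p = 0.0334). Nup62 is a nucleoporin of the central channel, and its call was lost with XEN fitted alone (adjusted p = 0.0569). Nup50, of the nuclear basket, was not called under 15 of 21 alternatives, among them the removal of any 1 TSC or EpiSC library (adjusted p up to 0.437). Nup42, which helps to release mRNA at the cytoplasmic face, rose 1.94-fold in TSC, from 11.3 ± 0.69 to 22.0 ± 0.658 CPM (n = 2; adjusted p = 0.0118), and 1.70-fold in EpiSC, from 19.3 ± 0.845 to 32.8 ± 2.49 CPM (n = 2; adjusted p = 0.0233). In XEN it stood at 11.2 ± 1.8 and 13.1 ± 1.92 CPM and was not called. Without any 1 TSC library the TSC call of Nup42 was lost, and without any 1 TSC or EpiSC library the EpiSC call was lost (adjusted p up to 0.297 and 0.312).

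Of 13 tested genes of THO, TREX and its adaptors, Thoc6, a THO subunit, fell from 36.9 ± 0.53 to 24.5 ± 1.06 CPM in TSC (log2 −0.59 ± 0.123; adjusted p = 0.0317) and from 35.7 ± 1.19 to 23.7 ± 0.477 CPM in EpiSC (log2 −0.59 ± 0.123; adjusted p = 0.0227). In XEN it stood at 17.6 ± 0.761 and 16.8 ± 1.5 CPM. Leaving out any 1 TSC or EpiSC library ended both calls of Thoc6, with adjusted p up to 0.417 in TSC and 0.276 in EpiSC. Ddx39b, the TREX helicase that loads ALYREF, fell in XEN from 101 ± 14.2 to 72.7 ± 2.68 CPM (log2 −0.48 ± 0.101; adjusted p = 0.0135). That call was lost without XEN DMSO library 3, when scaled to ribosomal protein genes and with XEN fitted alone (adjusted p up to 0.192). Alyref2, a paralogue of Alyref with which reads may be shared, rose 2.45-fold in XEN from 3.81 ± 0.98 to 9.34 ± 1.91 CPM (adjusted p = 0.00553). With XEN fitted alone that call was lost (adjusted p = 0.134). In TSC Alyref2 stood at a mean of 1.80 CPM in DMSO and 3.89 CPM with STM2457 (log2 1.11 ± 0.273; adjusted p = 0.0692), a difference called under 8 of 20 alternatives, DESeq2 among them (adjusted p = 0.00721).

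Of the 6 genes of TREX-2, the complex that tethers transcription to the pore, Pcid2 fell by 0.47 ± 0.119 on the log2 scale in XEN (adjusted p = 0.035), and was not called under 13 of 21 alternatives. In edgeR's fit of all libraries none of the 11 exportin and Ran cycle genes, the 3 partners of the cap complex, the 3 SR adaptors, the 5 exon junction genes or the 2 tested NXF paralogues was called in any line. With the replicate numbers as a block, 10 of the 56 genes were called in XEN (3 higher and 7 lower), against 2448 of all tested genes.

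**Figure D5:**
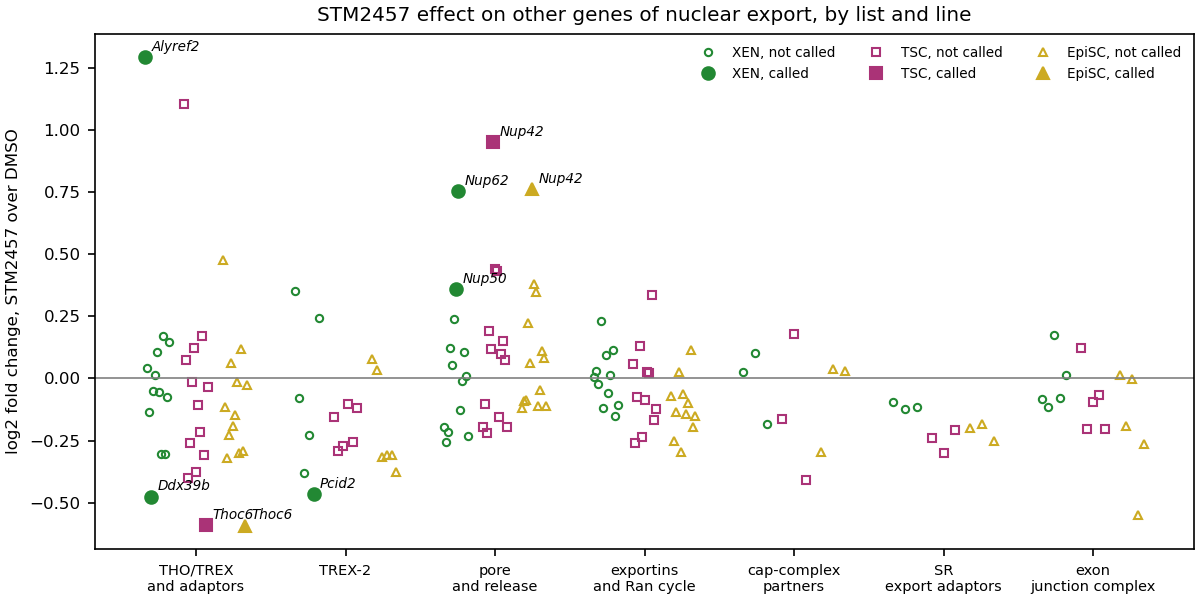
Log2 fold change of STM2457 over DMSO (vertical axis) for tested genes of 7 export lists in XEN (circles), TSC (squares) and EpiSC (triangles); filled symbols with names are called genes and open symbols are not called. The called genes are Alyref2, Nup62, Nup50, Ddx39b and Pcid2 in XEN and Nup42 and Thoc6 in TSC and EpiSC; the NXF paralogues are left out of the plot.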

How the data were processed

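The authors deposited 1 table of whole-number read counts per Ensembl gene for 14 libraries. Per the labels' protocols RNA was extracted with TRIzol and made into libraries with a stranded kit for total RNA. Per the submitters' processing notes, FastQC, Trim Galore, STAR and featureCounts were used on build GRCm39; versions and strand setting are not given in the sources used here. Names, exon lengths and transcript sequences came from GENCODE M21 (GRCm38), so no coordinates are printed; 52083 of 55416 identifiers had a name. Zc3h11a matched more than 1 identifier and was left out.

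All 14 libraries were fitted in 1 model of 6 groups with edgeR 4.0.16 (R 4.3.3): TMM, filterByExpr (minimum count 10, minimum total 15) and the robust quasi-likelihood test, two-sided, with Benjamini-Hochberg adjustment over 18430 genes. SE was derived from the log2 fold change and its F statistic. Log2 CPM had a prior count of 2. Alternatives were DESeq2 1.42.0, RLE factors, scaling to 81 ribosomal protein genes, no filter, a replicate block, fits of the compared lines alone and leaving out each library. XEN alone with the block was added after seeing the data. XEN replicate numbers pair libraries: residuals of same-numbered libraries correlated at 0.22 to 0.376. Other XEN pairs correlated negatively, which follows on balance from subtracting each group's mean. In TSC and EpiSC same-numbered libraries did not correlate (−0.0027 and −0.012). The fit was tested on simulated counts.

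Members and lists were chosen with earlier results of these data known. Named besides the 9 genes and Mettl3 are export genes called in at least 1 line (at most 12), the 5 genes most like Nxt1, and Aldh7a1, added for its overlap with Phax.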

Additional observations from a re-analysis of the deposited data

How the results depend on the processing

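Counts of the 9 genes called with STM2457 were 2 in each line. With the replicate block they were 3 in XEN, 4 in TSC and 4 in EpiSC. With that line fitted alone they were 5 in TSC and 6 in EpiSC, and DESeq2 gave 3 in TSC. Other alternatives that kept every library of the treated line gave 2. Every added call was lower: with the block Nxt2 in XEN, Ncbp1 and Xpo1 in TSC, and Ncbp1 and Alyref in EpiSC. Without 1 library they ranged from 2 to 2 in XEN, 0 to 2 in TSC and 2 to 2 in EpiSC. In DMSO the counts without 1 library ranged from 6 to 7 for TSC against XEN, 7 to 8 for EpiSC against XEN and 4 to 5 for EpiSC against TSC, which gave 9 when fitted without XEN. The replicate numbers do not pair libraries in TSC and EpiSC, and pair them in XEN, where the block changed no member's call but that of Nxt2. Of the other export genes 5, 2 and 2 were called in XEN, TSC and EpiSC. Of all tested genes DESeq2 called 1363, 816 and 999 in these lines, the block 2448, 2036 and 2427, and fits of 1 line 25, 4378 and 4321. Scaling to ribosomal protein genes called 141 of all genes in XEN and 141 in EpiSC. Among the other export genes DESeq2 called 8, 6 and 5, the block 10, 11 and 13, and fits of 1 line 0, 29 and 24. Under scaling to ribosomal protein genes the export genes called were 2 in XEN and 0 in EpiSC. Without 1 library they ranged from 3 to 6, 0 to 5 and 0 to 3. The cause was not tested.

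Signs turned with scaling to ribosomal protein genes for Ncbp2 in XEN (−0.00602) and TSC (0.0834), Alyref in TSC (0.0432) and Ncbp3 in EpiSC (0.0256) under STM2457. They also turned for TSC against XEN in Phax (−0.0265), Ncbp1 (−0.0632), Alyref (−0.89) and Xpo1 (−0.67), for EpiSC against XEN in Alyref (−0.18), and for EpiSC against TSC in Nxt1, Nxf1 and Phax (0.11 each). Ncbp3 in TSC against XEN was 0.00233 with no filter on low counts. Without 1 library, the log2 values ranged from −0.11 to 0.21 for Ncbp2 in XEN, −0.0204 to 0.0894 for Ncbp3 in TSC, −0.0949 to 0.0245 for Ncbp3 in TSC against XEN and −0.18 to 0.0126 for Ncbp2 in EpiSC against XEN, none of them called. Counts of 38 to 66 per XEN library limit the precision of Nxt2.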

Other observations

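Among the paralogues of Nxf1, the X-linked gene Nxf7 was chosen here after its values were seen. In DMSO it stood at 206 ± 22.3 CPM in XEN (n = 3), 23.7 ± 1.82 in TSC and 0.871 ± 0.0319 in EpiSC (n = 2 each). Per kb of exon that was 75.8 ± 8.23 in XEN, above the 46.4 ± 3.01 of Nxf1 in the same libraries, 8.74 ± 0.672 in TSC and 0.322 ± 0.0118 in EpiSC. In the edgeR fit the log2 difference was −3.12 ± 0.165 for TSC against XEN. It was −7.87 ± 0.236 for EpiSC against XEN and −4.75 ± 0.239 for EpiSC against TSC. No p-values are given for these differences, since Nxf7 was chosen after they were seen. With STM2457 Nxf7 stood at 201 ± 35.1 CPM in XEN and was not called (−0.03 ± 0.128). Nxf3, another X-linked paralogue, had 30 counts over the XEN DMSO libraries, 1 over those of TSC and 6 over those of EpiSC, and Nxf2 had 0, 3 and 10.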
